A study of Mus musculus with 6 samples.

Results

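The acyl-CoA thioesterases described here were the 8 genes *Acot1*, *Acot2*, *Acot4*, *Acot7*, *Acot8*, *Acot9*, *Acot11* and *Acot13*, taken by symbol from the 46517 genes counted in inguinal white adipose tissue (IngWAT) of mice with and without HDAC3 in adipocytes. All 8 were among the 14967 genes that passed the filter on low counts. RNA-seq was done on 3 pools of floxed and 3 pools of H3atKO IngWAT, each pool made from the RNA of 2 to 3 mice (500 ng). Floxed animals carried the loxP-flanked *Hdac3* alleles, and H3atKO animals carried these alleles together with the Adipoq-cre transgene. Both groups had the C57Bl6 strain label, were fed chow and were 5 to 9 months old. The Adipoq promoter drives Cre in adipocytes, so the vessel, stromal and immune cells of the depot kept an intact *Hdac3*. With bulk RNA, fewer cells of a type and less RNA per cell cannot be told apart.

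Acyl-CoA thioesterases cut activated fatty acids (acyl-CoAs) into the free fatty acid and coenzyme A, the reverse of the step that acyl-CoA synthetases catalyse. Each compartment has its own enzymes: ACOT1, ACOT7, ACOT11 and ACOT13 are mainly cytosolic, ACOT2 and ACOT9 are found in mitochondria, and ACOT4 and ACOT8 in peroxisomes. By releasing coenzyme A they set how much acyl-CoA is left for β-oxidation and lipid synthesis, and in brown fat ACOT11 (also called THEM1) is known as a brake on heat production.

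*Acot2*, *Acot1* and *Acot4* lie in this order, all on the plus strand, in a gene cluster on chromosome 12 (GRCm38). Their products belong to the same protein family but go to mitochondria, cytosol and peroxisomes. The 250 bases before each RefSeq start (GRCm38.p6, plus strand) are shown for the following reasons. *Acot1* and *Acot2* are known PPARα target genes in other tissues, and *Acot4* was the neighbour called in the comparison below. Whether *Acot4* is also such a target was not examined here. With the GC correction *Acot2* was called in place of *Acot4*. Capitals mark AGGTCA, the half-site bound by many nuclear receptors, on either strand (here read as TGACCT).
Acot2, chr12:83987611-83987860: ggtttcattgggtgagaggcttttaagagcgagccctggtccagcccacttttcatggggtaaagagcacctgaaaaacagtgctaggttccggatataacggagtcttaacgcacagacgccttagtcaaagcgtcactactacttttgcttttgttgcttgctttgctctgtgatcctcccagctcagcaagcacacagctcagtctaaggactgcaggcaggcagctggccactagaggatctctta
Acot1, chr12:84009252-84009501: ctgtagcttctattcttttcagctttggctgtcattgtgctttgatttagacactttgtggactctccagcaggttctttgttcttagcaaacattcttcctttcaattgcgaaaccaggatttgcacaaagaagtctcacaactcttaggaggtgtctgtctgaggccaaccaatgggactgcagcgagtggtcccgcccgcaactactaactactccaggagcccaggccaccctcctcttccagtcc
Acot4, chr12:84038129-84038378: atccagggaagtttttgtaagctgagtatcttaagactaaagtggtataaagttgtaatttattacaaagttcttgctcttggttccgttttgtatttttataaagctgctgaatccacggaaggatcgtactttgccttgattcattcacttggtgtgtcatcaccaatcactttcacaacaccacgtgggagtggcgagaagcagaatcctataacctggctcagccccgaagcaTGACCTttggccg
The *Acot4* window held 1 such match, ending 7 bases before the start, and none was found in the windows of the 6 other members with an entry. AGGTCA on either strand was present in 14% of 32851 promoter windows of the same length. The direct repeat DR1 (AGGTCA, any 1 base, AGGTCA again, on either strand), the form that PPAR and RXR bind together, was in no member's window and in 0.0335% of all windows. Only this exact spelling was searched, and variants of the repeat were not looked for. At so low a frequency its absence from the members' windows carries little information. These letters are a description of the windows and say nothing of binding.

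Between 23865507 and 35200685 reads per sample were given to genes, and expression is in cpm, the counts scaled to a common library size after TMM, where 3 counts equal 0.0659 to 0.0729 in floxed and 0.124 to 0.19 in H3atKO samples. *Hdac3* was at 68.9, 80.3 and 65.8 cpm in floxed and at 27.4, 21.1 and 12.9 cpm in H3atKO replicates, a fall of 1.83 on the log2 scale (SE 0.317, adjusted p = 0.0214). Genes of the mitochondrial genome took 6.92% to 12.9% of the counts in floxed and 26.9% to 35.3% in H3atKO samples. The rank correlation of a gene's deviation in a sample with its GC content ran from 0.0969 to 0.80 in floxed samples and from -0.711 to -0.433 in H3atKO samples, so GC content ordered the genotypes completely, and its part in the fold changes below cannot be told apart from that of the genotype. For the thioesterases and the related genes named with a fold change, values are therefore also given with the GC trend of each sample removed where this ended or made a call. All 8 adipocyte markers were detected in both genotypes, and none passed the test. Their log2 fold changes ran from -3.04 (*Lipe*, adjusted p = 0.0524) to 0.05 (*Fabp4*), 7 of 8 were negative and the median was -1.53.

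Compared per kilobase of exon, 2 thioesterases made up most of the family's mRNA in both genotypes. *Acot13*, whose small product (THEM2) works with phosphatidylcholine transfer protein and is also found at mitochondria, had the highest level in floxed IngWAT (36.1 ± 3.36 cpm per kb, SD, n = 3), followed by mitochondrial *Acot9* (26.7 ± 3.75). Their floxed ranges did not meet, but with the length of the longest transcript in place of all exons they did (37.3 ± 3.47 and 34.6 ± 4.87), so their order depends on the length used. *Acot7* (5.90 ± 4.55) and *Acot2* (4.41 ± 1.11) came next and could not be ordered, since the *Acot7* samples alone spanned 1.93 to 10.9. *Acot4* (2.22 ± 0.0766) and *Acot8* (1.83 ± 0.850) also overlapped, as did the lowest pair, *Acot1* (0.443 ± 0.221) and *Acot11* (0.267 ± 0.132). In H3atKO samples *Acot13* (43.9 ± 18.1) and *Acot9* (43.3 ± 4.72) had overlapping ranges with either length, and by the longest transcript *Acot9* had the higher mean (56.2 against 45.3). *Acot2* (7.03 ± 3.38) and *Acot4* (5.26 ± 1.54) overlapped below them and lay above the other 4 members. The range of *Acot7* (0.598 ± 0.288) met those of its neighbours *Acot8* (0.734 ± 0.561) and *Acot1* (0.577 ± 0.0485), while *Acot11* was at 0.478 ± 0.481.

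**Figure D1:**
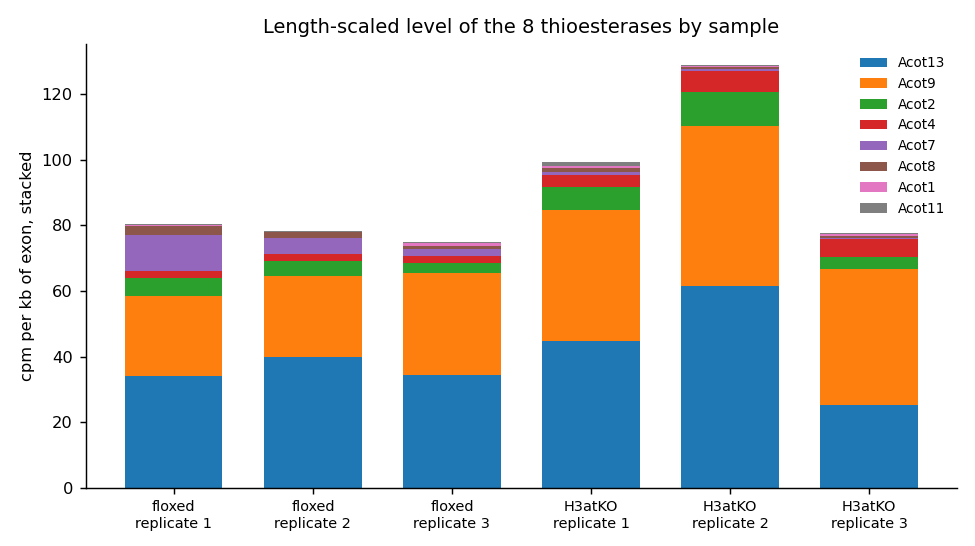
Stacked level of the 8 thioesterases (cpm per kb of exon, linear axis from 0) in each of the 3 floxed and 3 H3atKO samples. *Acot13* and *Acot9* fill most of every bar, and the *Acot7* segment is visible in the floxed bars but nearly gone in the H3atKO bars.

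On the TMM scale the summed level of the 8 members was 80.5, 78.2 and 74.8 cpm per kb in floxed samples. In H3atKO samples it was 99.2, 128.9 and 77.5, so replicate 3 lay within the floxed range. The TMM factors were 1.295 to 1.375 in floxed and 0.663 to 0.921 in H3atKO samples. With library sizes alone mean *Acot13* went from 48.53 in floxed to 33.15 in H3atKO and *Acot9* from 35.83 to 32.34. *Acot1*, *Acot2*, *Acot7* and *Acot8* were then also lower, and *Acot4* and *Acot11* higher. The higher H3atKO sum thus depends on the scaling. Cytosolic members held 54.8% ± 4.32 of the sum in floxed and 43.5% ± 8.09 in H3atKO samples (SD, n = 3). Most of this was *Acot13*, whose product is also found at mitochondria. It alone held 42.18% to 51.15% of the sum in floxed and 32.65% to 47.76% in H3atKO samples. The mitochondrial pair held 40.0% ± 4.91 and 50.4% ± 6.56, and the peroxisomal pair 5.19% ± 0.868 and 6.07% ± 1.56. The shares of a sample sum to the whole, so these are not separate results, and they are given without a test.

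**Figure D2:**
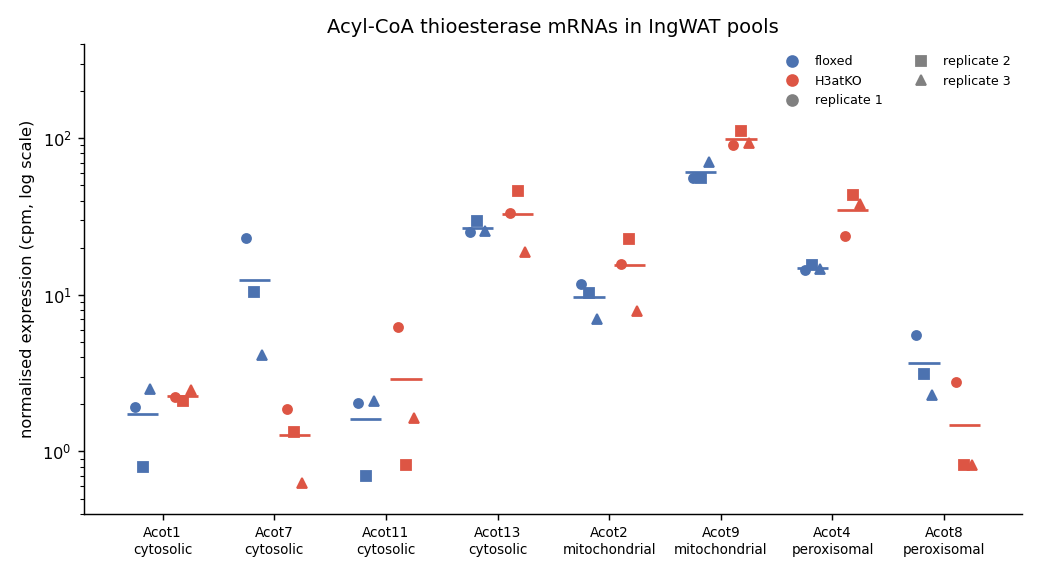
Normalised expression of each thioesterase (cpm of the TMM-scaled library, log axis) in every sample, with floxed in blue, H3atKO in red, replicate numbers as symbols and group means as lines. The groups do not overlap for *Acot4* and *Acot9* (H3atKO above) and for *Acot7* (H3atKO below), and overlap for the other 5 members. Scaled by library sizes only, the fold change of *Acot9* turned negative (-0.15 on the log2 scale).

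Of the 8 members, 1 passed the test (limma voom, Benjamini-Hochberg adjusted p under 0.05). This was *Acot4*, which rose, and 12.5% of the members compares with 16.5% of all tested genes, 9.42% of which were higher and 7.07% lower in H3atKO. In 3 members the samples of the genotypes did not overlap, against 51.7% of all tested genes (23.3% with H3atKO above and 28.5% with H3atKO below). Neither share exceeded the background. The median log2 fold change of the members was 0.55, with a median of -0.09 over all tested genes. Direction within the family was not uniform: *Acot7* and *Acot8* had negative fold changes and the other 6 positive ones, of which those of *Acot1*, *Acot2*, *Acot9*, *Acot11* and *Acot13* turned negative with library sizes alone. That scaling moved the median of all genes to -0.95.

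In peroxisomes the 2 members had fold changes of opposite sign. *Acot4* (ENSMUSG00000052392, chr12:84038379-84048601, plus strand), whose mouse product is known as a succinyl-CoA thioesterase, was at 14.5, 15.4 and 14.6 cpm in floxed replicates 1 to 3 and at 23.6, 43.6 and 37.9 cpm in H3atKO replicates 1 to 3. Every H3atKO sample lay above every floxed sample, the floxed samples were within 1.07-fold of each other, and the first H3atKO sample was the lowest of its group. *Acot4* was 2.26-fold higher in H3atKO (log2 fold change 1.18, SE 0.306, 95% interval 0.46 to 1.89, adjusted p = 0.0433, exact permutation p = 0.1, the smallest that 3 against 3 allow). It stayed positive under all 17 alternatives (0.35 to 1.45). The call was lost with library sizes alone (0.35, adjusted p = 0.372) and without the filter on low counts (1.07, adjusted p = 0.0655). The GC correction also ended it, alone (0.80, adjusted p = 0.106) and with the replicate block added (0.82, adjusted p = 0.0625). It was also lost when 1 of 5 samples was left out, with adjusted p of 0.09997 and 0.141 without floxed replicates 1 and 2, and of 0.0624, 0.107 and 0.139 without H3atKO replicates 1, 2 and 3.

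The *Acot4* locus shares exonic bases with other annotated genes. A stretch of 615 bases is common with *4732463B04Rik*, an antisense gene with 8, 9 and 22 counts in the floxed pools and 2, 0 and 1 in the H3atKO pools, where *Acot4* had 574 to 856 counts in each of the 6 samples. Raw counts of *Acot4* alone overlapped between genotypes (601 to 659 in floxed and 574 to 856 in H3atKO samples), so the rise is one of its share of the scaled library. A further 33 bases are common with *Gm49366*, which was not analysed here. The library kit keeps strand, but the strand setting of the counting was not given in the sources used here.

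*Acot8* (ENSMUSG00000017307, chr2:164792765-164804882, minus strand) encodes the broad-range peroxisomal enzyme that free coenzyme A inhibits. It was at 5.55, 3.13 and 2.29 cpm in floxed and at 2.76, 0.816 and 0.822 cpm in H3atKO replicates. H3atKO replicate 1 lay between floxed replicates 2 and 3, and in each genotype replicate 1 was the highest. The log2 fold change was -1.38 (SE 0.648, adjusted p = 0.14), which did not pass the test. It passed with the replicate number as a block (-1.33, adjusted p = 0.0265), a pairing taken from these same counts and not from the labels. It also passed with library sizes alone (-2.31, adjusted p = 0.0324), whereas with the GC correction the fold change was -0.36 (adjusted p = 0.612). *Acot8* shares 246 exonic bases with *Snx21* on the opposite strand. *Snx21*, a sorting nexin gene, had 1140, 795 and 592 counts in the floxed pools and 185, 117 and 57 in the H3atKO pools, beside 253, 130 and 94 and 67, 16 and 13 counts of *Acot8*. Whether reads of one gene were counted for the other was not tested.

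The length-scaled ratio of *Acot4* to *Acot8* within a sample does not depend on library scaling, but the GC trend was not removed from it. It was 0.779, 1.48 and 1.91 in floxed and 2.56, 16.01 and 13.8 in H3atKO replicates. All 3 H3atKO ratios exceeded all 3 floxed ratios, and the mean of the log2 ratio was 2.67 higher in H3atKO (exact permutation p = 0.1, two-sided, the smallest possible). This ratio and those of the other compartments were computed after the values had been seen, and 3 were compared. None had the GC trend removed, and each set a member of lower GC content against one of higher. The longest transcripts had 46.2% (*Acot4*) and 53.9% (*Acot8*), 45.3% (*Acot9*) and 53.7% (*Acot2*), and 49.9% (*Acot13*) and 56.2% (*Acot7*).

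In mitochondria, neither member passed the test. *Acot9* (ENSMUSG00000025287, chrX:155262443-155297654, plus strand) was at 55.8, 55.6 and 70.4 cpm in floxed and at 90.8, 110.7 and 93.9 cpm in H3atKO replicates. The groups did not overlap, and the spread within each was small (14.1% and 10.9% of the mean, SD). It was 1.63-fold higher in H3atKO on the TMM scale (log2 fold change 0.71, SE 0.225, adjusted p = 0.0624, exact permutation p = 0.1). The replicate block brought it past the threshold (0.71, adjusted p = 0.023), as did leaving out floxed replicate 3 (0.82, adjusted p = 0.0274), while it was 0.22 with the GC correction (adjusted p = 0.437) and -0.15 with library sizes alone. *Acot9* shares 20.2% of its 50-base and 0.968% of its 100-base transcript windows with *Acot10*, an intronless relative that had between 0 and 8 counts in any sample.

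*Acot2* (ENSMUSG00000021226, chr12:83987861-83993873, plus strand), the matrix enzyme for long-chain acyl-CoA, was at 11.8, 10.2 and 7.02 cpm in floxed and at 15.7, 22.7 and 7.90 cpm in H3atKO replicates. H3atKO replicates 1 and 2 exceeded every floxed sample, and replicate 3 fell among them. The log2 fold change of 0.61 (SE 0.439, 95% interval -0.42 to 1.63, adjusted p = 0.305) did not pass the test. Removing the GC trend gave 1.59 (adjusted p = 0.0287), and adding the replicate block to that fit gave 1.63 (adjusted p = 0.0152), so *Acot2* was called only in fits that removed the GC trend. With library sizes alone it was -0.26. The ratio of *Acot9* to *Acot2* per length was 4.56, 5.27 and 9.69 in floxed and 5.59, 4.71 and 11.5 in H3atKO replicates, which overlapped (difference in mean log2 ratio 0.13, exact permutation p = 0.6, two-sided).

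Among the cytosolic members, *Acot7* had the largest fold change of the family in size, in the negative direction. *Acot7* (ENSMUSG00000028937, chr4:152178134-152271855, plus strand), best known from brain and selective for arachidonoyl-CoA, had 1051, 433 and 169 counts in the floxed pools and 45, 26 and 10 counts in the H3atKO pools. Scaled, this was 23.1, 10.4 and 4.11 cpm against 1.85, 1.33 and 0.632 cpm. The genotypes did not overlap, but the floxed samples were themselves 5.62-fold apart, and replicate 1 was highest and replicate 3 lowest in both groups. The rank correlation with GC content fell in the same order, 0.80, 0.623 and 0.0969 in floxed and -0.433, -0.504 and -0.711 in H3atKO replicates. Its part in the replicate order of *Acot7* was not tested. The log2 fold change was -3.03 (SE 0.924, 0.123-fold), and its adjusted p of 0.0576 missed the threshold (exact permutation p = 0.1).

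*Acot7* was negative under every alternative (-3.93 to -1.45), and 9 of 17 brought it past the threshold. The replicate block, whose pairing was taken from these same counts, gave -3.25 (SE 0.352, adjusted p = 0.00294). The quasi-likelihood test of edgeR gave -3.29 (adjusted p = 0.025), DESeq2 -3.23 (adjusted p = 5.46e-05), and the fit without floxed replicate 3 -3.65 (adjusted p = 0.00776). With the GC correction it was -1.45 (adjusted p = 0.0928), and with the block added to that correction -1.55 (adjusted p = 0.0235). At 56.2% its longest transcript had the highest GC content of the 8 members. The length-scaled ratio of *Acot13* to *Acot7* was 3.13, 8.16 and 17.8 in floxed and 51.3, 98.6 and 85.1 in H3atKO replicates. These did not overlap, with a mean log2 ratio 3.30 higher in H3atKO (exact permutation p = 0.1, two-sided). The GC trend was not removed from these ratios.

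*Acot13* (ENSMUSG00000006717, chr13:24817948-24831540, minus strand), the most abundant cytosolic member, was at 25.3, 29.8 and 25.6 cpm in floxed and at 33.3, 45.8 and 18.8 cpm in H3atKO replicates. H3atKO replicates 1 and 2 lay above the floxed samples and replicate 3 below them. The log2 fold change of 0.22 (SE 0.339, 95% interval -0.57 to 1.01, adjusted p = 0.629) was not distinguishable from 0, and it was -0.10 without H3atKO replicate 2 and -0.64 with library sizes alone.

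*Acot11* (ENSMUSG00000034853, chr4:106744555-106804998, minus strand), the THEM1 gene, was at 2.04, 0.697 and 2.11 cpm in floxed and at 6.22, 0.816 and 1.64 cpm in H3atKO replicates. Only the first H3atKO sample was above the floxed samples. The log2 fold change was 0.56 (SE 0.828, adjusted p = 0.612), and without H3atKO replicate 1 it was -0.34, as it was negative with library sizes alone (-0.37). *Acot11* shares 1263 exonic bases with *Fam151a* on the other strand, which had 0 counts in all 6 samples.

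*Acot1* (ENSMUSG00000072949, chr12:84009490-84018371, plus strand), the cytosolic neighbour of *Acot2*, was at 1.91, 0.794 and 2.50 cpm in floxed and at 2.22, 2.09 and 2.47 cpm in H3atKO replicates. The second floxed sample was low, and the other 5 samples lay close together. The log2 fold change of 0.53 (SE 0.543, adjusted p = 0.467) did not pass the test, was -0.32 with library sizes alone, and was called only with sample quality weights (1.33, adjusted p = 0.0277). Its counts are uncertain for a further reason: 33.6% of its 50-base and 21.9% of its 100-base transcript windows also occur in other genes, *Acot2*, *Acot3*, *Acot4*, *Acot5* and *Acot6* among them, and reads with more than 1 place were given to no gene. For *Acot2* these shares were 27.7% and 17.1%, for *Acot4* 5.2% and 0.36%, and for *Acot7*, *Acot8*, *Acot11* and *Acot13* 0% at both lengths.

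**Figure D3:**
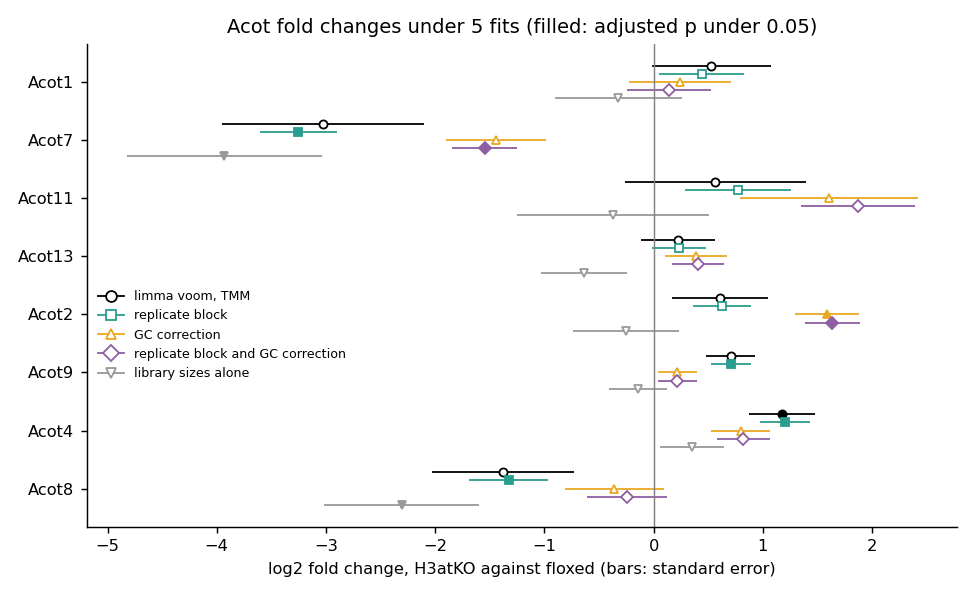
Log2 fold change of each member (H3atKO against floxed, bars are standard errors) under 5 fits, with filled symbols at an adjusted p under 0.05. *Acot7* lies left of 0 and *Acot4* right of 0 in all 5, *Acot8* moves towards 0 with the GC correction, and *Acot1*, *Acot2*, *Acot9*, *Acot11* and *Acot13* cross 0 with library sizes alone.

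With the replicate number as a block, 4 of the 8 members passed the test, *Acot4* and *Acot9* upwards and *Acot7* and *Acot8* downwards, where 53.5% of all tested genes did (24.8% upwards and 28.7% downwards). With the GC correction 1 of 8 passed (*Acot2*) against 8.56% of all genes, and with both together 2 of 8 (*Acot2* and *Acot7*) against 22.8%. By tool or scaling, edgeR's quasi-likelihood test called 2 members (*Acot4* and *Acot7*) against 31.2% of all genes, DESeq2 called 3 (these and *Acot9*) against 42.8%, limma with sample quality weights 4 (these 3 and *Acot1*) against 56.4%, and library sizes alone 2 (*Acot7* and *Acot8*) against 39.9%.

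The genes whose 6 values followed *Acot4* most closely were *Mmachc*, *Alg14*, *Lrrc58*, *Rtn3* and *Degs1*. Likeness was measured as the root mean square distance between centred log2 cpm values over the 6 samples, among 8381 genes, and these genes lay 0.084 to 0.102 log2 units from *Acot4*. *Mmachc* takes part in vitamin B12 handling, *Alg14* in N-glycosylation and *Degs1* in ceramide synthesis. For *Acot7* the nearest were *Plbd2*, *Zyx*, *Eef2*, *Eng* and *Plod3*, at 0.081 to 0.179 log2 units. Among them, *Zyx* encodes a focal adhesion protein, *Eef2* the translation elongation factor, *Eng* the endothelial receptor endoglin and *Plod3* a collagen lysyl hydroxylase.

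Of 14 other thioesterases listed 9 were tested, and 11.1% passed, beside 12.5% of the members and 16.5% of all tested genes. The 1 that passed went upwards (list median log2 fold change 0.47). This was *Lypla1*, a protein depalmitoylase, with a log2 fold change of 1.90 (SE 0.384, adjusted p = 0.0276). It was 0.82 with the GC correction (adjusted p = 0.0621). *Acot6*, the gene of the same chromosome 12 family with the most reads beside *Acot2* and *Acot4*, had 383, 439 and 433 counts in the floxed pools and 367, 456 and 171 in the H3atKO pools (log2 fold change 0.70, adjusted p = 0.164). It was named for its place in the family and after its values had been seen. *Acot10*, *Acot12*, *Them5*, *Baat* and *Olah* were below the filter.

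Acyl-CoA synthetases form what thioesterases cut, and 6 of 17 tested genes (23 listed) were called, or 35.3%, beside 16.5% of all tested genes. The calls were 5 upwards and 1 downwards, and the list median log2 fold change was 0.12. *Acss2*, which makes acetyl-CoA from acetate, rose from 31.7 ± 1.69 to 263.9 ± 108.3 cpm (log2 fold change 2.98, adjusted p = 0.00867). *Acsl3*, a long-chain synthetase of the endoplasmic reticulum and lipid droplets, rose by 2.87 (adjusted p = 0.00887), and both rises also passed with the GC correction (2.84 and 2.10). *Slc27a3* fell by 2.89 (adjusted p = 0.0478), from a mean of 2.54 to 0.323 cpm, with as few as 2 counts in a sample. With the GC correction its log2 fold change was -0.52 (adjusted p = 0.539). *Slc27a5*, *Slc27a6*, *Acsbg2*, *Acsm1*, *Acsm2* and *Acsm4* were below the filter.

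Of 13 tested genes of coenzyme A synthesis, transport and breakdown (14 listed, *Nudt8* not analysed here), 5 rose and 0 fell. The share called was 38.5%, beside 16.5% of all tested genes, and the list median log2 fold change was 1.00. *Pank1*, a pantothenate kinase that commits pantothenate to coenzyme A, went from 5.86 ± 3.98 to 79.1 ± 12.0 cpm (SD, n = 3), a log2 fold change of 3.98 (adjusted p = 0.0092). The peroxisomal coenzyme A diphosphatases *Nudt7* and *Nudt19* rose by 2.34 (adjusted p = 0.0087) and 1.27 (adjusted p = 0.0344). All 3 also passed with the GC correction, at 3.53, 1.83 and 2.28.

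Among textbook PPAR target genes outside the family, 12 of 22 tested genes (24 listed) passed, or 54.5%, beside 16.5% of all tested genes. The 12 called were 9 upwards and 3 downwards, and the list median was 1.25. Those that rose included *Ehhadh*, the peroxisomal bifunctional enzyme (log2 fold change 5.03, adjusted p = 0.00615), and *Hadhb* of the mitochondrial trifunctional protein (3.05, adjusted p = 0.00745). *Cpt1b* and *Cyp4a14* were below the filter. *Acot1* and *Acot2*, named above as PPARα targets elsewhere, had log2 fold changes of 0.53 and 0.61, and neither passed the test. *Acot4*, the member called, was at 1.18, and whether it or other members are such targets was not examined here. With the GC correction *Acot2* was at 1.59 (adjusted p = 0.0287), beside a median of 1.51 for this list, and *Acot1* at 0.24 (adjusted p = 0.749). Whether the members differ from this list was not tested.

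**Figure D4:**
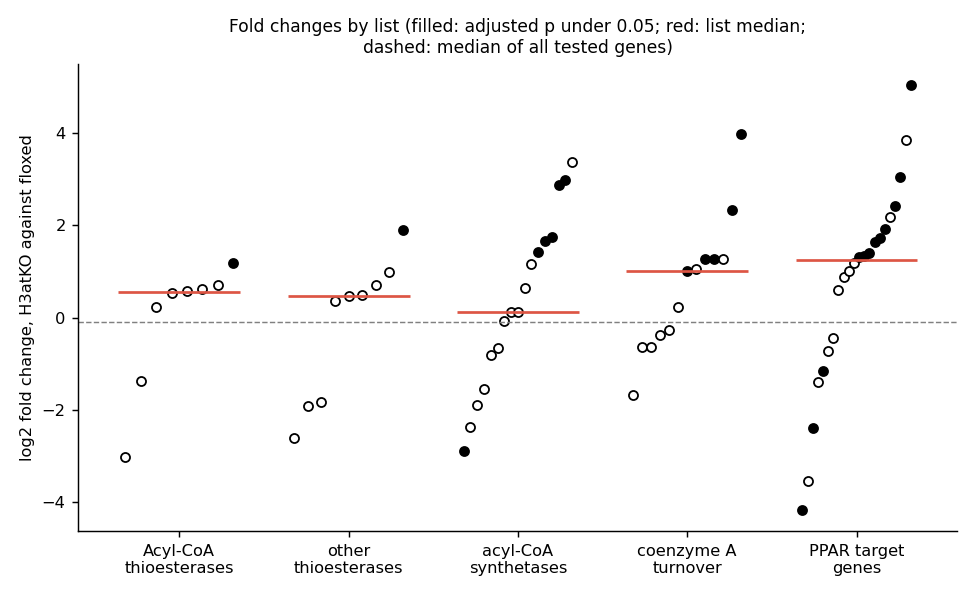
Log2 fold changes (H3atKO against floxed) of the 8 thioesterases and of 4 related lists, each point 1 gene ordered by its value, filled where the adjusted p was under 0.05. Red lines are list medians (0.55, 0.47, 0.12, 1.00 and 1.25 from left to right) and the dashed line is the median of all tested genes (-0.09).

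The summed endothelial, fibroblast and brown or beige markers did not overlap between the genotypes. The sums of adipocyte, macrophage, skeletal muscle, and B and T cell markers did. The counts called below stand beside 16.5% of all tested genes, and beside 8.56% with the GC correction. Endothelial *Kdr* (0.30, adjusted p = 0.443) and macrophage *Mrc1* (0.35, adjusted p = 0.735) had positive log2 fold changes, unlike the rest of their lists. The summed level of 6 endothelial markers was 583.8 to 995.5 cpm in floxed and 394.3 to 528.9 cpm in H3atKO samples, with 3 of 6 called, all downwards, of which only *Pecam1* was still called with the GC correction. For 7 macrophage markers the sums were 267.2 to 1124 and 212 to 361.1 cpm, with 3 of 7 called, all downwards, and 0 of 7 with the GC correction (*Csf1r* adjusted p = 0.187, *C1qa* 0.769, *C1qb* 0.232). For 6 fibroblast markers the sums were 2595 to 8921 and 1473 to 2336 cpm, with 1 of 6 called (*Dpt*, downwards, also with the GC correction). The 7 brown or beige adipocyte markers summed to 38.76 to 94.1 cpm in floxed and 327.2 to 1158 cpm in H3atKO samples. *Elovl3* had the highest H3atKO mean of these (1.80 cpm in floxed and 392.4 in H3atKO samples). It and *Dio2* were called upwards, *Dio2* with an adjusted p of 0.0543 after the GC correction. *Ucp1* (2.33, adjusted p = 0.353), *Cox8b* (0.70, adjusted p = 0.461) and *Cox7a1* (-0.28, adjusted p = 0.78) overlapped between the genotypes and were not called in the main fit. The 8 adipocyte markers, of which *Fabp4* took the most, summed to 13850 to 32390 and 15740 to 27040 cpm (0 called). Skeletal muscle markers (7 genes, 0 called) ranged from 2.21 to 3406 cpm among H3atKO samples and from 490.9 to 2831 among floxed samples, and B and T cell markers (8 genes, 0 called) from 8.57 to 377.9 and from 5.76 to 122.9 cpm. Epithelial and neuron markers each summed to at most 4.55 cpm in any sample. No listed marker had 0 counts in all 6 samples. The GC correction also made calls among the markers. Endothelial *Tek* (-0.88, adjusted p = 0.0371) and fibroblast *Dcn* (-1.86, adjusted p = 0.018) were then called downwards. Of the brown or beige markers, *Cidea* (3.15, adjusted p = 0.0225) and *Cox8b* (2.20, adjusted p = 0.0371) were then called upwards. The part of these cells in the fold changes of the thioesterases, such as the lower *Acot7* and *Acot8* values, was not tested.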

How the data were processed

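Total RNA of IngWAT was extracted from individual mice and pooled within a genotype, and poly(A) libraries were made with a stranded kit. Per the labels, the authors trimmed reads with cutadapt 1.3, aligned them to GRCm38 with STAR 2.4.2a and counted them with HTSeq 0.6.1. They deposited raw counts per Ensembl gene, neither normalized nor filtered. Lines that name no gene, which hold reads with more than 1 place (28.3% to 45.5% of alignments), were left out. Symbols and exon lengths came from GENCODE M21 (46005 of 46517 identifiers matched).

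As in the study, genes reaching 1 cpm in any sample were kept, scaled by TMM (edgeR 4.0.16) and compared by limma 3.58.1 (voom, genotype only) in R 4.3.3, using all 14967 genes for the Benjamini-Hochberg adjustment. The threshold of 0.05 is not from the study. Alternatives used edgeR's quasi-likelihood test, DESeq2 1.42.0, other scalings, filters and weights, a replicate block, a GC correction (robust loess, span 0.3, on the GC content of the longest transcript) and each sample left out. Only the main limma fit, edgeR and DESeq2 were run on simulated counts, which held no GC trend and no pairing of replicates. The other alternatives were not tested in this way. Replicates are separately labelled pools, whose mice the labels do not list, so p-values measure the spread between these samples. Deviations from the group means correlated between same-numbered samples (r = 0.510, 0.389 and 0.264 over genes). By the rule that every such r exceed 0.1, the numbers were taken to pair the samples, and the pairing comes from the data only.

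Promoter windows came from RefSeq by symbol for 7 of the 8 members. Named genes are the 8 members and, from each other list, the 3 called genes with the largest change and those below the filter, with the 5 nearest genes of the member with the smallest p in each direction; 1 gene that this rule names is not reported here. The members, lists and rules were chosen with earlier results of these data known. A floor of 3 counts covers counting error only.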

Additional observations from a re-analysis of the deposited data

Results flagged for a closer look

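Reads with more than 1 place in the genome, which the counts leave out, made up 31.0% of alignments on average in floxed and 44.7% in H3atKO samples. They are singled out because they lie outside the gene counts and are more frequent in H3atKO samples, whose lowest value (43.8%) exceeds the highest floxed value (35.2%). A read can be tallied at each of its places. Among the members, the transcripts of *Acot1*, *Acot2*, *Acot9* and *Acot4* share 50-base windows with other genes (0.968% and 0.36% at 100 bases for *Acot9* and *Acot4*), and how many of their reads are in these tallies was not tested.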

How the results depend on the processing

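Beside the 1 member, 2468 genes in all, 1 other thioesterase, 6 synthetases, 5 coenzyme A genes and 12 PPAR targets called, edgeR called 2 members, 4665 genes and 4 other thioesterases, and DESeq2 called 3, 6400 and 4 with 12 synthetases. Library sizes alone gave 2 members, 5973 genes (306 up, 5667 down) and 3 other thioesterases, and turned the fold changes of *Acot1* (-0.32), *Acot2* (-0.26), *Acot9* (-0.15), *Acot11* (-0.37) and *Acot13* (-0.64). No filter gave 3 coenzyme A genes, and at least 10 counts in every sample gave 2 members and 3 other thioesterases. Quality weights called 4 members, 8443 genes, 6 other thioesterases, 12 synthetases, 9 coenzyme A genes and 19 PPAR targets. With the replicate block 4 members, 8007 genes, 5 other thioesterases, 12 synthetases, 8 coenzyme A genes and 20 PPAR targets passed, and 2 members when the GC trend was removed as well. The GC correction alone gave 1277 genes and 0 other thioesterases. Calls at an adjusted p under 0.1 were 3, 5986, 4 and 11 (members, all genes, other thioesterases, synthetases), and at 0.01 they were 0, 82, 0 and 2 with 2 coenzyme A genes and 3 PPAR targets. At an unadjusted p under 0.05, 6562 genes passed.

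Leaving out 1 sample gave 0 to 3 members, 1 to 6557 genes, 0 to 4 other thioesterases, 0 to 11 synthetases, 0 to 6 coenzyme A genes and 1 to 14 PPAR targets. Without floxed replicates 1 and 2 there were 239 and 1 genes called, without H3atKO replicates 1, 2 and 3 there were 246, 534 and 107, each with 0 members, and without floxed replicate 3 there were 6557 with 3 members. *Acot11* (-0.34 to 1.15) and *Acot13* (-0.10 to 0.54) turned, the former without H3atKO replicate 1 and the latter without H3atKO replicate 2. The cause of these changes was not tested, apart from the fewer samples. Of 136 fold changes of members under alternatives, 102 kept direction and side of the threshold, 9 (all of *Acot4*) lost the call, 18 gained one and 7 reversed. RLE factors and a fit without mitochondrial genome genes changed no member's call. With 3 pools a genotype no exact test can go below p = 0.1, and *Acot7* and *Acot8* rest on as few as 10 and 13 counts in a sample.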
